A study of Mus musculus with 18 samples.

Results

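Heat shock proteins and their DnaJ partners were followed through the nucleus accumbens, a ventral striatal region, of mice with neuropathic pain and antidepressant treatment. Members were the protein-coding genes whose symbol opens with Hspa, Hspb, Hspd, Hspe, Hsph or Hsp and a digit, or with Dnaja, Dnajb or Dnajc and a digit. This rule gave 75 rows, 30 of heat shock proteins and 45 of DnaJ proteins, among 22703 protein-coding rows and 37980 rows in all. The rows carry 74 symbols, since Hspa14 stands on 2 rows that share a locus.

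RNA from 18 samples of C57BL/6 background was sequenced, in 6 groups with 3 biological replicates each. In 3 groups the label was Rgs9-2 knockout: injured mice given desipramine, injured mice given saline, and naive mice. The other 3 groups, labelled Rgs9 wild type, had the same conditions. The injury model, spared nerve injury, is an operation in which branches of the sciatic nerve are cut as a model of lasting neuropathic pain. Desipramine, a tricyclic antidepressant, was injected intraperitoneally at 15 mg/kg, 2 injections a day. The naive groups had neither injury nor injection, so their contrast with saline holds both. RGS9-2, found mainly in the striatum, ends signalling through G proteins sooner, and the study asked how it shapes gene regulation in this region.

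Chaperones of the HSP70 family bind unfolded stretches of other proteins and release them in a cycle driven by ATP. DnaJ proteins bring clients to HSP70 and start the hydrolysis, while HSP90 takes over clients close to their final fold, and small heat shock proteins hold unfolding proteins without ATP. Under stress, heat shock factor raises the inducible members through GAA and TTC units in their promoters, and the endoplasmic reticulum answers unfolded protein through an element of its own. Neurons depend on constitutive members for vesicle coats, synaptic vesicle release and receptor maturation.

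Promoter sequences show which of the members with a sequence entry carry these elements. They came from RefSeq (build GRCm38.p6), from 250 bases before to 50 bases after each annotated start, and 60 of the 74 symbols had an entry. Hspa8, Hsp90aa1, Hsp90ab1 and Hspa9 were among those without an entry, so their promoters were not searched. The heat shock element was searched on both strands as 3 alternating units of GAA and TTC with 2 bases of any kind between them. It stood in 6 of 77 member promoters (7.79%), against 198 of all 32851 promoters (0.603%). These promoters belong to 4 genes, Dnajb6, Hspd1, Hspe1 and Hsph1. They are not separate sites: Dnajb6 and Hsph1 each have 2 starts that hold the same match, and Hspd1 and Hspe1 share theirs. Counted by gene, the element stood at 4 of 60 members and at 179 of all 27025 genes. The looser form of 2 units, which every 3-unit match contains, stood in 23.4% of member promoters and 15.1% of all promoters. It stood in 66.7% of the promoters of the stress-inducible list, at 5 of the 6 genes with an entry. The endoplasmic reticulum stress element, CCAAT and CCACG with any 9 bases between, stood in 3 member promoters (3.9%), against 0.119% of all, at Hspa5, Hsp90b1 and Dnajc3. These matches describe letters and not bound factors.

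The stretches below are examples, each read 5′ to 3′ on the gene's strand with the matched bases in capitals. The first 3 carry the endoplasmic reticulum element of BiP, GRP94 and a co-chaperone of BiP. The next 2 carry the 3-unit heat shock element, as 2 overlapping matches at the mitochondrial chaperonin pair and as 1 match at a cytosolic DnaJ protein. The last is a 2-unit match upstream of Hspb3, shown because Hspb3 was the member with called changes; this form is common among all promoters.
Hspa5, chr2:34772005-34772063, plus strand: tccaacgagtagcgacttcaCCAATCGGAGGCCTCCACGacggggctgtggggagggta
Hsp90b1, chr10:86705513-86705676, minus strand: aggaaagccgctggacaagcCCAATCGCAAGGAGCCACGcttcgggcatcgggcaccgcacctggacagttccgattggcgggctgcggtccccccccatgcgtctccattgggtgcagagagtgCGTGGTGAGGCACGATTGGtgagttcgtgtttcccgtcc
Dnajc3, chr14:118937807-118937865, plus strand: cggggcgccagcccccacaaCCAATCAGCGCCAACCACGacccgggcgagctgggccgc
Hspe1, chr1:55088039-55088096, plus strand: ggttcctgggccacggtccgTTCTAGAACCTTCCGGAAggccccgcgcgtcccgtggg
Dnajb6, chr5:29735832-29735884, plus strand: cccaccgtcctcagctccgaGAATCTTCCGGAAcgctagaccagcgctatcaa
Hspb3, chr13:113663873-113663920, minus strand: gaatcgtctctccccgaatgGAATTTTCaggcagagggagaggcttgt
Hsp90b1 carries 2 copies of its element, which lie on opposite strands. The Hspe1 stretch lies between Hspe1 and Hspd1, genes that run in opposite directions, and the same bases hold the Hspd1 match on the other strand.

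Each value here is an FPKM, fragments scaled to transcript length and library size, with 1 value per gene and group. The authors' deposited tables, 7 in number, each compare a pair of groups and were normalised apart, so group levels were set on a common scale by 1 factor per table and are descriptions. No value per sample was used, so no SD over the 3 replicates can be given. The depth of the samples is unknown. A member was called where the deposited q, Cuffdiff's p after Benjamini-Hochberg adjustment within its table, was at or below 0.05. Dividing each log2 fold change by its test statistic gave its standard error (SE). These SEs were wider than Cuffdiff's p implies in every test of a member with an unadjusted p under 0.05. Tests are two-sided and no further sample split was possible. Sequencing lane and group cannot be told apart, since each of the 6 lanes held 1 group.

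Some facts touch all results. Rgs9 stood higher in every group labelled knockout, at 217 against 120 FPKM in naive mice, 177 against 104 FPKM under saline and 168 against 114 FPKM under desipramine in the authors' deposited tables, which goes against the label, so groups are called by their label only. Markers of medium spiny neurons, the main neurons of this region, were high, with Penk between 978 and 1590 FPKM. Of these 12 markers 4 were called higher for the knockout label over the wild-type label in naive mice. After injury in mice labelled knockout 3 were called lower, and in each other comparison at most 1 was called. The cortical neuron markers summed to 289 FPKM in naive mice labelled wild type and to between 56.9 and 109 FPKM in the other 5 groups. The choroid plexus markers summed to 436 to 679 FPKM in the groups labelled knockout, against 1451, 118 and 27.0 FPKM in the naive, saline and desipramine groups labelled wild type. Of the other lists, astrocytes, endothelium, microglia and oligodendrocytes had 0 genes called in any table, meninges at most 1, smooth muscle at most 2, and red blood cells and septal or hypothalamic neurons at most 3 in 1 direction. Ependymal cells had 5 of 6 genes called higher for desipramine over saline under the knockout label, and at most 1 called in each other comparison. In this bulk tissue fewer cells of a type and less RNA per cell cannot be told apart.

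The levels of most chaperone genes varied little between the 6 groups. Of 75 members, 62 had at least 1 FPKM in every group, 3 in some groups only and 10 in none, and 68 were tested in all 7 tables. Over 478 tests of members, 2 passed, both of Hspb3, and 14 had an unadjusted p under 0.05. Over all tested genes in the same tables, the share of tests that passed was 0.824%, and 5.36% had an unadjusted p under 0.05. In 463 of the 478 the log2 fold change lay within 0.5 of 0. Among the 62 members at 1 FPKM or more, the highest group exceeded the lowest by less than 1.5 times for 59, and by 2 times or more for 0. The median ratio of highest to lowest group was 1.23 for these members and 1.28 for the 12738 protein-coding genes that passed the same minimum. Without the naive group labelled wild type the medians were 1.12 and 1.15.

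**Figure D1:**
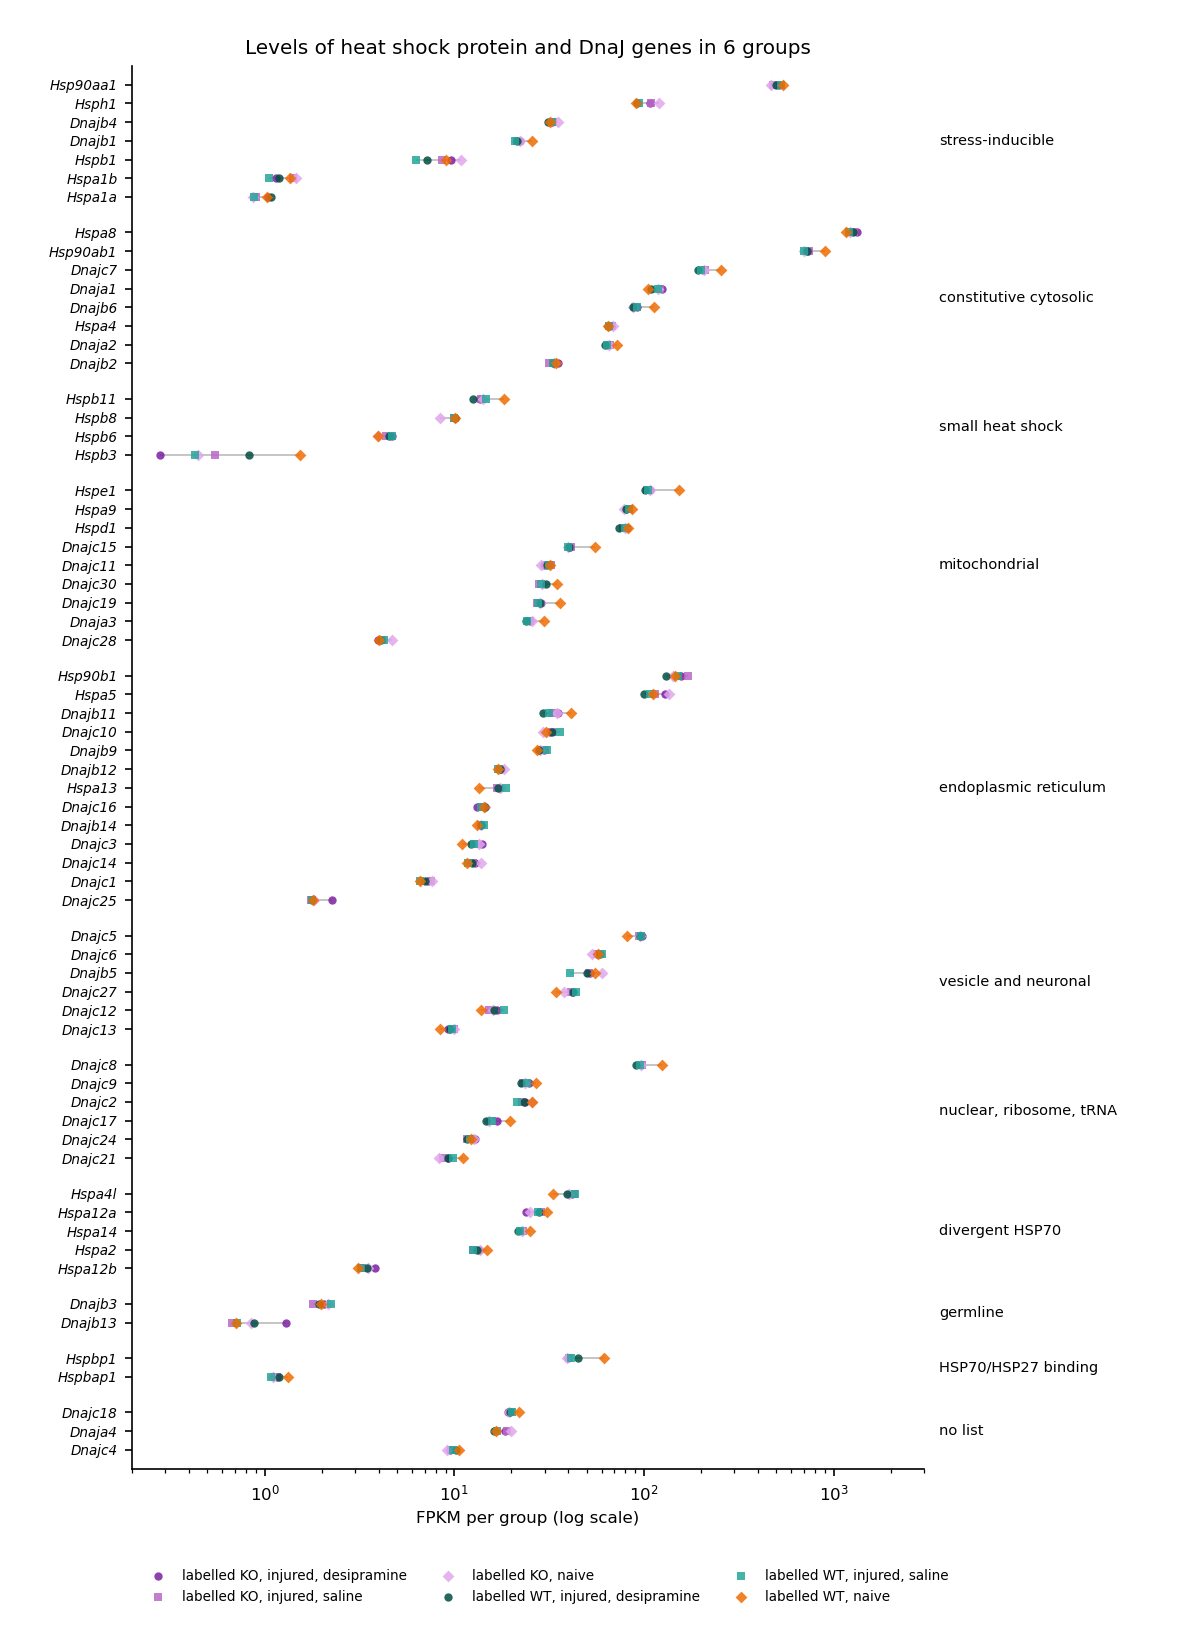
Level of each member that reached 1 FPKM in any group, on a log scale, with 1 point per group and a grey line over the range of the 6 groups; the second Hspa14 row and the members below 1 FPKM everywhere are not drawn. The points of most genes lie almost on each other, the naive group labelled wild type (orange diamonds) often stands at an end of the range, and Hspb3 has the widest range, 0.280 to 1.55 FPKM.

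Expression was dominated by constitutive cytosolic chaperones. Hspa8, the constitutive HSP70 that folds clients and strips clathrin from vesicles, stood at 1337, 1286 and 1225 FPKM in the desipramine, saline and naive groups labelled knockout, against 1264, 1207 and 1161 FPKM in the matching groups labelled wild type. Hsp90ab1, the constitutive HSP90, stood at 733, 745 and 696 FPKM in those labelled knockout and at 721, 696 and 899 FPKM in those labelled wild type. With Hsp90aa1, which belongs to the stress-inducible list, these genes made up 50.4% to 52.9% of the summed FPKM of all members, in every group. Summed over members, FPKM came to 4946, 4854 and 4736 in the groups labelled knockout and to 4696, 4720 and 5097 in the groups labelled wild type.

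The other constitutive members ran from 254 down to 31.6 FPKM and kept a narrow range. Dnajc7, a DnaJ protein that binds both HSP70 and HSP90, stood at 206, 210 and 208 FPKM in the desipramine, saline and naive groups labelled knockout and at 193, 200 and 254 FPKM in those labelled wild type. Dnaja1, a DnaJ protein with HSP70 as its partner, stood at 124, 122 and 119 FPKM under the knockout label, against 110, 119 and 105 FPKM under the wild-type label. For Hspa4, an exchange factor that frees ADP from HSP70, the levels were 66.6, 67.8 and 68.4 FPKM under the knockout label and 64.9, 65.2 and 64.4 FPKM under the wild-type label. Hspa4 had the narrowest range of these, 1.06 times from its lowest to its highest group. Dnajb6, which keeps aggregating proteins apart, ranged from 87.6 to 113 FPKM, Dnaja2 from 62.4 to 72.5 FPKM, and Dnajb2, a neuronal DnaJ protein, from 31.6 to 35.2 FPKM.

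Stress-inducible members spanned a wide range of levels. Hsp90aa1, the inducible HSP90, stood at 516, 479 and 467 FPKM in the desipramine, saline and naive groups labelled knockout, against 500, 527 and 542 FPKM in those labelled wild type. The inducible HSP70 genes Hspa1a and Hspa1b, by contrast, were near the bottom: their summed level was 2.19, 2.31 and 2.34 FPKM under the knockout label and 2.27, 1.94 and 2.38 FPKM under the wild-type label. That sum was 0.161% to 0.205% of the Hspa8 level. Reads of these near-identical genes can be split either way, so their single values are uncertain, and the sum is given.

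Exchange factor and DnaJ members of the inducible list lay between these extremes. Hsph1, the HSP110 that resets HSP70, stood at 108, 110 and 120 FPKM in the desipramine, saline and naive groups labelled knockout and at 91.8, 94.6 and 90.5 FPKM in the groups labelled wild type, with no overlap. Dnajb1, the classical HSP40, stood at 22.4, 21.3 and 22.3 FPKM under the knockout label, against 21.5, 21.0 and 25.8 FPKM under the wild-type label. Dnajb4, a close relative of Dnajb1, ranged from 31.4 to 35.2 FPKM. Hspb1 (HSP27), a small heat shock protein, had the widest range among members at 1 FPKM or more, with 9.61, 8.59 and 10.8 FPKM in the groups labelled knockout, against 7.16, 6.26 and 9.08 FPKM in the groups labelled wild type. The groups overlapped for Hspb1, since the naive group labelled wild type stood above the saline group labelled knockout.

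Neither list held a called gene: 0 of 7 inducible and 0 of 8 constitutive members were called in each table. The share of all tested genes called ran from 0.202% to 1.44% over the tables, so a count of 0 in a list of this size, here and in the other role lists, is near the background. After injury in mice labelled wild type the inducible list had a median log2 fold change of -0.22, with a median of -0.12 for the constitutive list and -0.03 for all tested genes. The inducible median was -0.11 with a pseudocount of 1 FPKM, and -0.04 without the uncertain pair Hspa1a and Hspa1b. After injury in mice labelled knockout the medians were -0.06 for the inducible list, 0.03 for the constitutive list and 0.01 for all tested genes. Desipramine over saline gave inducible medians of 0.07 under the knockout label and 0.03 under the wild-type label, beside constitutive medians of 0.00 and -0.02. The inducible median under the wild-type label turned to -0.04 without Hspa1a and Hspa1b and to -0.0045 over members at 1 FPKM or more. For the knockout label over the wild-type label, the inducible medians were 0.11 in naive mice, 0.03 under saline and 0.06 under desipramine, and the constitutive medians were -0.09, 0.05 and 0.07. No test was run on these medians.

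**Figure D2:**
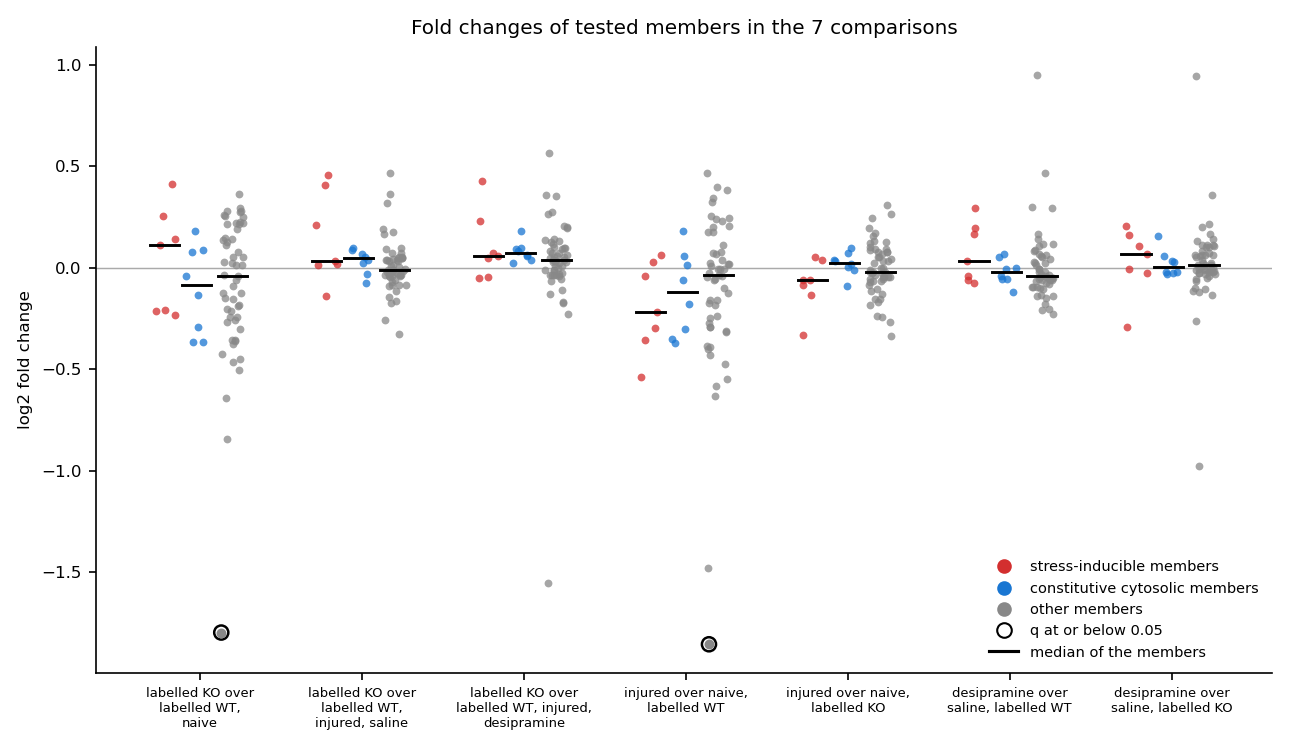
Log2 fold change of every tested member in the 7 comparisons, with stress-inducible, constitutive cytosolic and other members side by side, a bar at each median and a ring around values with a q at or below 0.05. All medians lie near 0, and both rings belong to Hspb3, at -1.80 and -1.86.

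Hspb3 was the member with called differences. It is a small heat shock protein best known from muscle, where it assembles with Hspb2, and its level was low here. It stood at 0.280, 0.550 and 0.444 FPKM in the desipramine, saline and naive groups labelled knockout, and at 0.824, 0.428 and 1.55 FPKM in the groups labelled wild type. The naive group labelled wild type was the highest and the only one above 1 FPKM. In naive mice it fell to 0.436 FPKM under the knockout label, against 1.52 FPKM under the wild-type label, in the authors' deposited table, a log2 fold change of -1.80 with an SE of 0.62 (Cuffdiff q = 0.0368). After injury in mice labelled wild type it fell to 0.426 FPKM under saline, against 1.54 FPKM in naive mice, in the authors' deposited table, a log2 fold change of -1.86 with an SE of 0.63 (Cuffdiff q = 0.0218). The call in naive mice was lost with adjustment over all 7 tables (adjusted p = 0.0562), and both calls were lost at a q of 0.01 and with a normal p from the statistic (adjusted p = 0.415 in naive mice and 0.367 after injury). Both calls share the naive group labelled wild type, in which short transcripts stood high as a class. The longest coding transcript of Hspb3 has 781 nt. Hspb3 was outside the comparison by transcript length given below, which took genes at 1 FPKM or more in every group. The part of length in these calls was not tested. The share of all tested genes called was 1.44% in the first comparison and 1.42% in the second, and 1 of 69 members in each (Hspb3) was near that background. An unadjusted p under 0.05 was given to 2 of 69 members in the first and 3 of 69 in the second, beside 9.50% and 8.94% of all tested genes.

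In the other comparisons Hspb3 did not pass. Under desipramine its log2 fold change for the knockout label over the wild-type label was -1.56 with an SE of 0.55 (0.283 against 0.833 FPKM, Cuffdiff q = 0.0704) in the authors' deposited table. Desipramine over saline gave -0.98 with an SE of 0.62 in mice labelled knockout (unadjusted p = 0.0349) and 0.95 with an SE of 0.52 in mice labelled wild type (unadjusted p = 0.0167) in the authors' deposited tables, both by Cuffdiff. Under saline the log2 fold change between labels was 0.36, and after injury in mice labelled knockout it was 0.31, in the authors' deposited tables.

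The 6 groups ranked by Hspb3 stood in the same order as when ranked by Slc17a7, the vesicular glutamate transporter of cortical neurons, an order held by 92 of 17486 protein-coding genes (0.526%), both of these included. Slc17a7 stood at 40.9, 81.5 and 52.5 FPKM in the desipramine, saline and naive groups labelled knockout and at 87.2, 50.9 and 226 FPKM in those labelled wild type. In the comparisons that called Hspb3, the log2 fold change of Slc17a7 was -2.11 in naive mice (Cuffdiff q = 0.00761) and -2.15 after injury (Cuffdiff q = 0.00766) in the authors' deposited tables. Of the 7 cortical neuron markers, 7 were called lower in each of those comparisons; for the knockout label over the wild-type label under desipramine 5 of 7 had a negative log2 fold change and 2 a positive one. The order is that of Slc17a7, since the other cortical markers were not ranked singly. The mean log2 level of the 7 markers, with 1 FPKM added, had another order. It was lowest in naive mice labelled knockout, at 2.269, against 2.273 in the desipramine group with that label. The saline group labelled knockout (2.75) stood above the desipramine group labelled wild type (2.67). The part of cortical tissue in the Hspb3 result was not tested. Hspb2, the partner of Hspb3 in muscle, was also highest in the naive group labelled wild type, at 0.767 FPKM, with 0.276 to 0.426 FPKM in the other groups, though only that 1 of the 6 groups held the same rank as for Slc17a7; after injury in mice labelled wild type its log2 fold change was -1.48 with an SE of 0.66 (Cuffdiff q = 0.182) in the authors' deposited table.

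**Figure D3:**
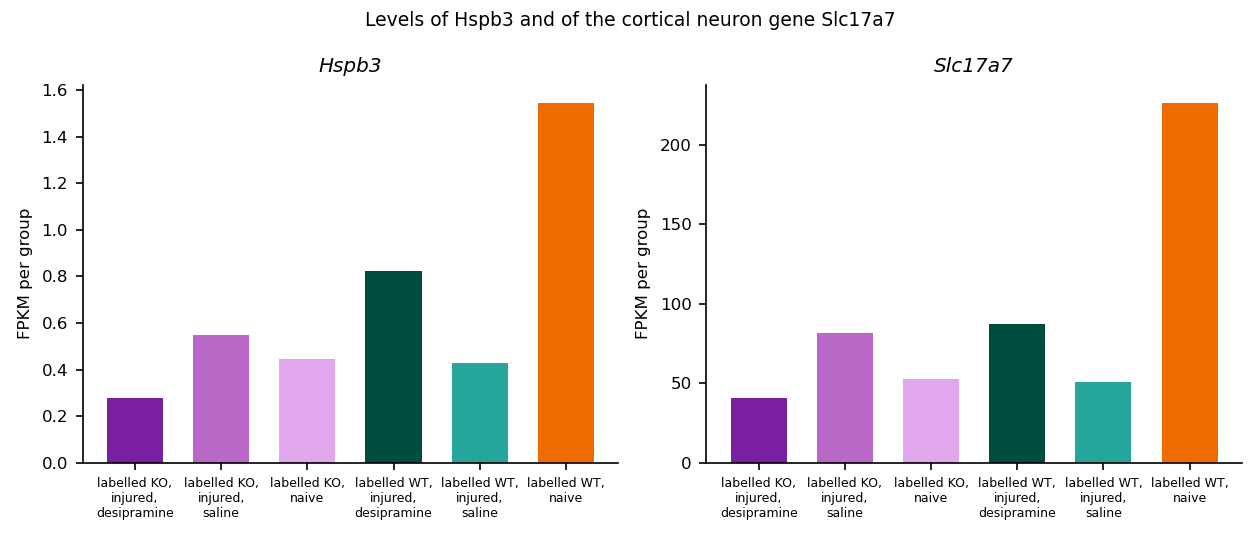
FPKM of Hspb3 (left) and Slc17a7 (right) in the 6 groups, 1 bar per group, with no error bar because 1 value per group was used. The other cortical neuron markers are not drawn. Both genes peak in the naive group labelled wild type, at 1.55 and 226 FPKM, and both are lowest in the desipramine group labelled knockout, at 0.280 and 40.9 FPKM.

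Other small heat shock proteins were not called. Hspb11, a small protein of cilia transport, ranged from 12.6 to 18.3 FPKM, Hspb8, which works with Bag3 in clearing misfolded proteins, from 8.45 to 10.1 FPKM, and Hspb6 (HSP20) from 3.96 to 4.71 FPKM. Hspb9, Hspb2 and Hspb7 were below 1 FPKM in every group. Of the 7 in this list 6 were tested in at least some tables, and Hspb3 was the 1 called.

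Of 9 mitochondrial chaperones 0 were called in any table. Hspd1 (HSP60) and Hspe1 (HSP10) form the chaperonin that folds proteins of the matrix. Hspd1 stood at 81.2, 77.7 and 79.1 FPKM in the desipramine, saline and naive groups labelled knockout and at 74.2, 79.7 and 82.8 FPKM in those labelled wild type. Hspe1 stood at 108, 103 and 108 FPKM under the knockout label and at 101, 105 and 154 FPKM under the wild-type label. The ratio of Hspd1 to Hspe1 was 0.734 to 0.758 in 5 groups and 0.539 in naive mice labelled wild type. The Hspe1 difference did not pass: in naive mice its log2 fold change between labels was -0.51 with an SE of 0.80 (Cuffdiff q = 0.941) in the authors' deposited table. Hspa9, the mitochondrial HSP70, ranged from 79.0 to 86.3 FPKM.

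Short and long transcripts also stood apart in the naive group labelled wild type. Its FPKM summed over all genes came to 662842, against 523922 to 538230 in the other groups. It was the highest group for 26 and the lowest for 17 of the 62 members at 1 FPKM or more. The same count was not made over all protein-coding genes, so it cannot be called particular to the members. As a description across genes, which are not independent, the log2 ratio of its level to the mean of the other 5 groups had a Spearman rho of -0.52 with the length of the longest GENCODE coding transcript over 62 members, and of -0.48 over 12477 protein-coding genes. In that ratio 9 members of up to 1500 nt had a median of 0.13 and 19 members over 4000 nt a median of -0.11; over all genes the medians were 0.37 and -0.13. Hspe1 (774 nt) and Hspbp1 (1593 nt) were among the high members, and Hspa13 (4237 nt) and Hspa4l (9479 nt) among the low ones. The part of transcript length in the results that use this group was not tested.

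**Figure D4:**
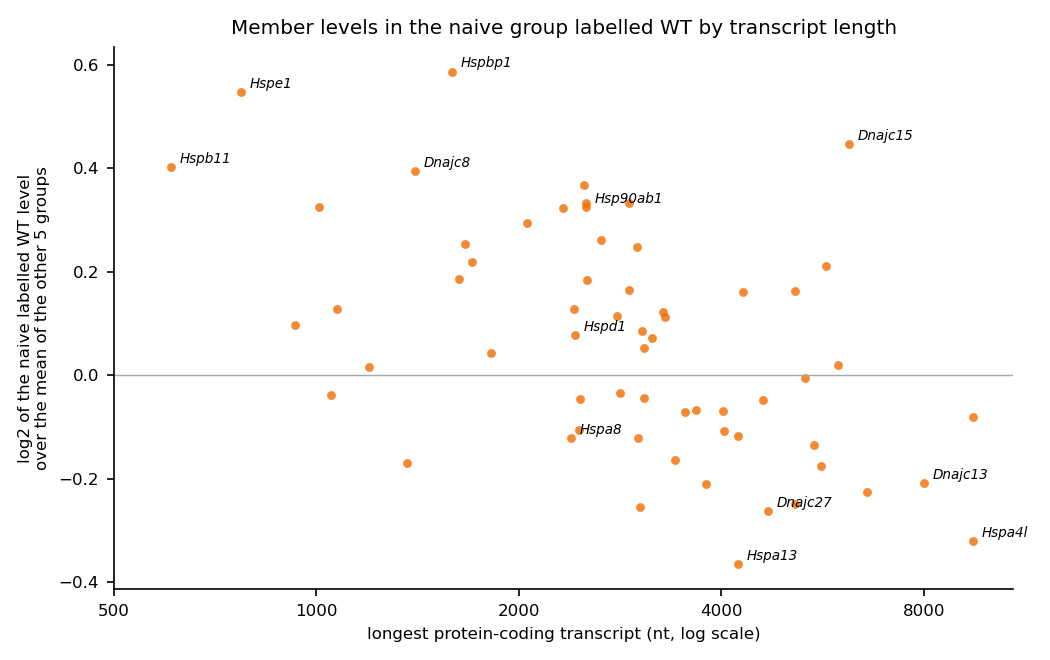
Log2 of the level in the naive group labelled wild type over the mean of the other 5 groups (vertical) by the length of the longest coding transcript (horizontal, log scale), 1 point for each of the 62 members at 1 FPKM or more, with 12 named. Points fall from upper left to lower right (Spearman rho -0.52), with Dnajc15, a mitochondrial DnaJ protein of 6193 nt, above the rest of the long ones.

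Of 13 chaperones of the endoplasmic reticulum 0 were called in any table, with Hspa5 closest to the threshold. Hspa5 (BiP), the HSP70 of this compartment, stood at 129, 115 and 136 FPKM in the desipramine, saline and naive groups labelled knockout, against 101, 108 and 112 FPKM in those labelled wild type, with no overlap. Under desipramine it had 130 FPKM under the knockout label, against 102 FPKM under the wild-type label, in the authors' deposited table, a log2 fold change of 0.36 with an SE of 0.19 (Cuffdiff q = 0.0985, unadjusted p = 0.00125). Hsp90b1 (GRP94), the HSP90 there, stood at 157, 170 and 142 FPKM under the knockout label and at 130, 150 and 147 FPKM under the wild-type label, so these groups overlapped. Its log2 fold change under desipramine was 0.27 with an SE of 0.20 (Cuffdiff q = 0.552) in the authors' deposited table. Dnajb11, which brings clients to BiP, ranged from 29.5 to 41.3 FPKM, and Dnajc3, a co-chaperone of BiP, stood at 13.0 to 14.1 FPKM under the knockout label and 11.02 to 12.7 FPKM under the wild-type label. In this comparison 0 of 68 members and 0.859% of all tested genes passed; 5 members (7.35%) and 5.58% of all genes had an unadjusted p under 0.05.

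The 3 group levels under the knockout label all lay above the 3 under the wild-type label for 8 of the 62 members (12.9%), with a background of 7.60% of protein-coding genes, and all below for 4 (6.45%), with a background of 7.18%. The 8 were Hsph1, Hspa5, Dnaja4, Dnajc3, Dnajc1, Dnajc14, Dnajb4 and Hspa4, with log2 ratios of the group means between 0.06 and 0.29. The 4 were Hspbp1, Dnajc21, Dnajc4 and Dnajc6, with log2 ratios between -0.30 and -0.07. With 1 value per group these are descriptions. Of the 8, Hsph1 had the highest log2 ratio, and its log2 fold change between labels in naive mice, 0.41 with an SE of 0.55, did not pass in the authors' deposited table (Cuffdiff q = 0.795). Medium spiny neuron markers, Rgs9 among them, stood higher under the knockout label too. Of these, 11 of 12 had a positive log2 fold change in naive mice and 12 of 12 under saline and under desipramine. This was not particular to them: in the same order, endothelial markers had 6 of 7, 6 of 7 and 7 of 7 positive. Smooth muscle markers had 7 of 7, 5 of 6 and 5 of 7. Each other list lacked a positive majority in some of these comparisons. The part of these cell types in the member levels was not tested.

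Vesicle and neuronal DnaJ proteins had 0 called genes among 6. Dnajc5, the cysteine string protein of synaptic vesicles, stood at 97.6, 93.8 and 95.4 FPKM in the desipramine, saline and naive groups labelled knockout and at 95.5, 96.03 and 81.8 FPKM in those labelled wild type. Dnajc6 (auxilin), which recruits Hspa8 to clathrin coats, ranged from 53.5 to 60.2 FPKM. Dnajb5 stood at 51.9, 51.1 and 60.4 FPKM under the knockout label, against 49.98, 40.8 and 54.9 FPKM under the wild-type label; under saline its log2 fold change between labels was 0.32 with an SE of 0.34 (Cuffdiff's unadjusted p = 0.0942) in the authors' deposited table.

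Of the HSP70 regulators and nuclear members 0 were called. Most stood highest in naive mice labelled wild type, as did 26 of the 62 members at 1 FPKM or more. A count over all genes was not made. Hspbp1, an exchange factor of HSP70, stood at 39.7, 40.3 and 39.5 FPKM in the desipramine, saline and naive groups labelled knockout, against 44.7, 41.3 and 61.7 FPKM in those labelled wild type. Its log2 fold change was -0.64 with an SE of 0.36 between labels in naive mice (Cuffdiff q = 0.196) and -0.58 with an SE of 0.37 after injury in mice labelled wild type (Cuffdiff q = 0.346) in the authors' deposited tables. Hspbap1, which binds HSP27, ranged from 1.09 to 1.33 FPKM. Dnajc8, a protein of the splicing machinery, ranged from 90.6 to 125 FPKM, Dnajc9, which escorts histones, from 22.6 to 26.9 FPKM, and Dnajc2, a partner of the ribosome, from 21.5 to 25.8 FPKM.

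Among divergent HSP70 members, Hspa4l, an exchange factor, ranged from 33.3 to 43.5 FPKM and Hspa14, a partner of the ribosome, from 21.6 to 25.2 FPKM on its higher row and from 0.591 to 0.830 FPKM on its lower row. Hspa12a stood at 23.9, 28.7 and 25.04 FPKM in the desipramine, saline and naive groups labelled knockout and at 28.1, 27.7 and 30.9 FPKM in those labelled wild type. Under desipramine its log2 fold change between labels was -0.23 with an SE of 0.17 (Cuffdiff q = 0.636), and for desipramine over saline under the knockout label -0.26 with an SE of 0.21 (Cuffdiff q = 0.977), in the authors' deposited tables. Neither passed.

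Members known from testis were low. Dnajb3 ranged from 1.79 to 2.25 FPKM and Hspa1l from 0.510 to 0.605 FPKM, while Dnajb7, Dnajb8, Dnajc5b and Dnajc5g had too few reads for a test in any table, as had Hspb7 and Dnajc22. Dnajb13, a protein of motile cilia and sperm tails, stood at 1.30, 0.675 and 0.852 FPKM in the desipramine, saline and naive groups labelled knockout and at 0.878, 0.715 and 0.703 FPKM in those labelled wild type. For desipramine over saline under the knockout label its log2 fold change was 0.94 with an SE of 0.59 (Cuffdiff q = 0.316, unadjusted p = 0.0062) in the authors' deposited table. The ependymal marker list, whose cells bear motile cilia, was also highest and lowest in those groups, with summed levels of 55.3 FPKM under desipramine and 24.8 FPKM under saline, and 5 of its 6 genes were called higher there. Its part in the Dnajb13 value was not tested.

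Calls were absent from the remaining comparisons. For the knockout label over the wild-type label under saline, 0 of 68 members passed with a background of 0.329% of tested genes, and 0 had an unadjusted p under 0.05, with a background of 2.90%. After injury in mice labelled knockout, 0 of 68 passed with a background of 0.459%, and 0 had an unadjusted p under 0.05, with a background of 4.41%. Desipramine over saline called 0 of 68 with a background of 0.202% under the wild-type label and 0 of 68 with a background of 1.05% under the knockout label, both by Cuffdiff's q. An unadjusted p under 0.05 was given to 1 member under the wild-type label, with a background of 1.79%, and to 3 under the knockout label, with a background of 4.37%. A p that misses the threshold does not show equal levels. The 95% interval, 1.96 SE either way, lay within 1 log2 unit of 0 in 309 of the 478 tests. In the comparisons with the naive group labelled wild type it did so for 15 of 69 members between labels and 17 of 69 after injury, and in the others for 52 to 59 of 68.

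Responses were also compared between labels. The injury response under the knockout label minus that under the wild-type label passed for 0 of 62 members, with a background of 0.132% of 13633 genes, and the same difference for desipramine passed for 0 of 62 members, with a background of 0.145% of 13827 genes. In both cases 0 members had an unadjusted normal p under 0.05. The share of all genes under that p was not taken. These tests rest on the recovered SEs, which are wide beside Cuffdiff's p, so a count of 0 does not show equal responses. Hspb3, below the minimum of 1 FPKM, had a difference of 2.16 with an SE of 0.88 for injury and of -1.92 with an SE of 0.81 for desipramine.

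Partners of the chaperones outside the family were not called either, beside a share of 0.824% of the tests of all genes in the 7 tables. In the lists of heat shock factor and its targets (9 tested), HSP70 co-chaperones (14), HSP90 co-chaperones (14), the cytosolic chaperonin with prefoldin (13), mitochondrial cofactors (9) and the unfolded protein response of the endoplasmic reticulum (21), 0 genes were called in any table. Pdia4, a disulfide isomerase of the endoplasmic reticulum, came closest: under desipramine it had 20.04 FPKM under the knockout label, against 15.5 FPKM under the wild-type label, a log2 fold change of 0.37 with an SE of 0.20 (Cuffdiff q = 0.0630) in the authors' deposited table. Others with the smallest q of their list were Cdc37, the HSP90 adaptor of kinases, at -0.77 (Cuffdiff q = 0.139) and Bag1, an exchange factor, at -0.71 (Cuffdiff q = 0.149), both after injury in mice labelled wild type in the authors' deposited table. In naive mice Hsf4, a relative of heat shock factor, had a log2 fold change between labels of -0.74 (Cuffdiff q = 0.268), Clpp, a mitochondrial protease, -0.60 (Cuffdiff q = 0.305), and Cct5, a chaperonin subunit, -0.49 (Cuffdiff q = 0.568) in the authors' deposited table.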

How the data were processed

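Accumbens RNA was sequenced from TruSeq libraries, per the labels' protocols. TopHat2 2.0.9, Bowtie2 2.1.0 and Cuffdiff 2.1.1 and the builds NCBIM37 and mm9 are named in the submitters' processing notes; their options were not given in the sources used here. Per the file headers, each of 7 deposited tables gives an FPKM per gene and group, a log2 fold change of the second group over the first, a test statistic (a score), a p-value and a q-value. The authors' q was recomputed from their p and differed by rounding only. Depth is unknown.

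From these, SEs were recovered as fold change over statistic, and 95% intervals as 1.96 SE. Both are wider than Cuffdiff's own p implies in every test of a member with an unadjusted p under 0.05. For Hspb3 in naive mice, between labels, the adjusted p from a normal distribution of the statistic was 0.415, against a Cuffdiff q of 0.0368. The interval counts and the differences of responses rest on these SEs and are cautious for that reason. Group levels are means over tables after 1 factor per table, 0.986 to 1.02, taken from 13647 genes. Differences of responses used the summed squared SEs. Their two-sided p came from the normal distribution and was adjusted by Benjamini-Hochberg over genes at 1 FPKM or more in the 4 groups. Whether the recovered SEs hold for these differences was not tested. A test by limma was planned for values per sample and not used. Computation used Python 3.11.15, pandas 2.3.3, NumPy 2.4.6 and SciPy 1.17.1.

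Members and gene lists were chosen with earlier results of these data known. Levels in all groups are given for the inducible and constitutive lists in full or as ranges, for called members, for the 3 highest members of each other list and for the 3 widest ranges among members at 1 FPKM or more; the remaining named members, the transcript length measure and the comparison of 3 group levels with 3 were chosen after values were seen. Of the other pathways the gene with the smallest q of each list is named. Marker lists of 12 cell types were read in each table.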

Additional observations from a re-analysis of the deposited data

How the results depend on the processing

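Calls of members rested on Hspb3 and on the threshold. In naive mice, between labels, 1 member was called at a q of 0.05, 0 at a q of 0.01, 0 with adjustment over all 7 tables (q of Hspb3 0.0562) and 0 where p came from a normal distribution of the statistic (0.415). After injury in mice labelled wild type, 1 was called at a q of 0.05, 0 at a q of 0.01 and 0 with the normal p (0.367). Over all 7 tables, 2 calls became 0 at a q of 0.01, 1 with adjustment over all tables, 0 with the normal p, and 0 in the tables without the naive group labelled wild type, an alternative chosen after seeing the data. In these the cause was not tested, other than that leaving out those tables leaves out both called tests. Medians of members and of the inducible and constitutive lists kept their sign and moved by at most 0.1 in 71 of 77 alternatives. The other 6 were of the inducible list. After injury in mice labelled wild type its median of -0.22 became -0.11 with a pseudocount of 1 FPKM and -0.0407 without Hspa1a and Hspa1b or with a wider list; for desipramine over saline under the wild-type label 0.03 became -0.0045 at 1 FPKM or more and -0.0418 without that pair or with the wider list. The cause was not tested. Without the minimum of 1 FPKM the differences of responses of Hspb3 had an unadjusted p of 0.0140 for injury and 0.0175 for desipramine and did not pass after adjustment in either case. Counts of members passing the difference of responses stayed at 0 with fold changes centred and without the minimum. No paired analysis was possible because the tables hold 1 value per group. Replicates were not left out for the same reason, and protein motifs were not run. Depth is unknown, so what it limits was not measured.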
